A study of Mus musculus with 16 samples.

Results

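Amino acid transporter genes were followed in hair follicle stem cell (HFSC) organoids, in which α6+/CD34+ HFSCs and their α6+/CD34- progenitors grow side by side. The genes were taken by symbol, as those named Slc1a, Slc6a, Slc7a, Slc36a, Slc38a or Slc43a followed by a number and nothing more, except Slc7a11; the rule uses no measured value. It leaves out Slc6a20a and Slc6a20b, whose symbols end in a letter and which are given with the other carriers. The count table held 47 such genes among 32989 gene identifiers, and a further 11 symbols of these families were not analysed here. Of the 47, 33 passed the minimum, an average of 5 tags or more per library, and were tested.

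Organoids came from 4 wild-type C57BL/6J mice and were grown for 2 weeks, either untreated or with N1-acetylspermidine (N1-AcSpd, an acetylated form of the polyamine spermidine) for 72 h. Sorting on integrin α6 and CD34 gave 4 groups of 4 libraries: untreated CD34-, untreated CD34+, N1-AcSpd CD34- and N1-AcSpd CD34+. Each mouse gave 1 library to every group, so the 16 libraries share 4 donors, and the ages of the donors are not given in the labels. RNA was read as unique molecular identifier (UMI) tags, which count single captured molecules, with 15480075 to 29074855 tags per library.

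Solute carriers of these families move amino acids across the plasma membrane or out of lysosomes. Members of SLC7A are either cationic amino acid carriers that work alone or light chains that reach the surface only when bound to a heavy chain, Slc3a2 or Slc3a1. SLC38A carriers take up small neutral amino acids such as glutamine with sodium, and SLC1A holds the glutamate carriers and the neutral exchangers. SLC36A holds carriers found largely on lysosomes, some of them coupled to protons. The names also bring in carriers of other substrates: Slc6a2 for noradrenaline, Slc6a4 for serotonin, Slc6a6 for taurine, Slc6a8 for creatine and Slc43a3 for nucleobases.

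Levels are given as CPM, counts scaled to a common library total with the trimmed mean of M-values (TMM). A tag is read once per molecule near the end of the transcript, so CPM was not divided by transcript length, and the order of genes below rests on that. Changes are log2 fold changes with their standard error (SE) from edgeR's quasi-likelihood test, fitted to 19049 genes, and a gene was called at a Benjamini-Hochberg adjusted p under 0.05 over all of them.

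Sequences of 4 promoters are shown because their genes carry the main contrasts below: Slc38a2 and Slc38a4 are neighbours with unlike behaviour, Slc7a8 rose and Slc7a14 fell in CD34+ cells. Each line gives the 250 bases before the RefSeq start on GRCm38.p6, 5′ to 3′ on the gene's strand, and capitals mark the letters CACGTG.
Slc38a2, chr15:96699729-96699978, minus strand: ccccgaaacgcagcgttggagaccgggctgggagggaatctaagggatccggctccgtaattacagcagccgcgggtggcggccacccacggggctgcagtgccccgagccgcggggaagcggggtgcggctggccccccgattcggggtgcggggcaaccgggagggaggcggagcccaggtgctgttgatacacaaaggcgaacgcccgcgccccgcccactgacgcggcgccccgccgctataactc
Slc38a4, chr15:97055957-97056206, minus strand: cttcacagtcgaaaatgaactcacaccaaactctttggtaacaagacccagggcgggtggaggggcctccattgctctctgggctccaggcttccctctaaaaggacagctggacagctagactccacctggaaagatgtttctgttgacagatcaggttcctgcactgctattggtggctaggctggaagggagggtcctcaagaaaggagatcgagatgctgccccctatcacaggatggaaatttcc
Slc7a8, chr14:54781887-54782136, minus strand: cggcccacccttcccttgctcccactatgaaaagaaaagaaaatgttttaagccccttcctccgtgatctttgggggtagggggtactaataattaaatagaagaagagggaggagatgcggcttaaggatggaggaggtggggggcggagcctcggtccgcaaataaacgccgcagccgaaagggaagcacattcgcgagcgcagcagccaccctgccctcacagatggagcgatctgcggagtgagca
Slc7a14, chr3:31310320-31310569, minus strand: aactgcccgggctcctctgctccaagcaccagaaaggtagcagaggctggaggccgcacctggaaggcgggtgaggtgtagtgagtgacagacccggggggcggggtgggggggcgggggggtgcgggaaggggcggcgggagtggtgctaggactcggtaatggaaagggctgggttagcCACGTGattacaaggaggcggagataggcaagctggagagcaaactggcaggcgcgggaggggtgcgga
In these stretches GC content was 72.0% for Slc38a2, 52.8% for Slc38a4, 55.6% for Slc7a8 and 66.8% for Slc7a14. RefSeq windows, which add the 50 bases after the start, were found for 32 of the 47 genes, and 4 sets of letters were searched in them on both strands; none of the 4 contains another. CACGTG, the core that several basic helix-loop-helix factors can bind, was in the windows of 8 of the 32 genes (25.0%), against 8.09% of all 27025 symbols with a window. Of these 8, 5 were below the count minimum, Slc36a1 and Slc38a7 were not called, and Slc7a14 was called in both comparisons of the sorted fractions. TGATGNAA was in 2 of the 32 (Slc1a4 and Slc7a7), against 4.51% of symbols. TGANTCA was in 6 (18.8%, with Slc7a1 and Slc6a14 among them), against 8.97%, and TATAAA in 5 (15.6%, with Slc1a3 and Slc38a4 among them), against 15.7%. A gene can have several windows, so the TATAAA of Slc38a4 lies in a window other than the one shown. The 32 genes had 46 windows and the 27025 symbols 32851, and the shares above were not adjusted for windows per gene.

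Slc38a2, the sodium-coupled neutral carrier that many cells raise when amino acids run short, stood highest of the 47 genes at a mean of 140.6 CPM over the 16 libraries, above 93.4% of the tested genes. Slc7a14 followed at 45.6 CPM, the taurine carrier Slc6a6 at 41.4, the arginine and lysine carrier Slc7a1 at 26.5 and the light chain Slc7a5 at 22.4. At the other end, 14 genes stayed below the count minimum. Of these, Slc38a5 was highest at 0.129 CPM, and the others, at or below 0.0364 CPM, included Slc1a6, Slc1a7, Slc38a3, Slc38a11, Slc43a1, Slc6a3, Slc6a5, Slc6a15, Slc6a17, Slc6a18, Slc7a10 and Slc7a15. None of the 14 was at 0 in all 16 libraries, and their total counts ran from 2 to 43.

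**Figure D1:**
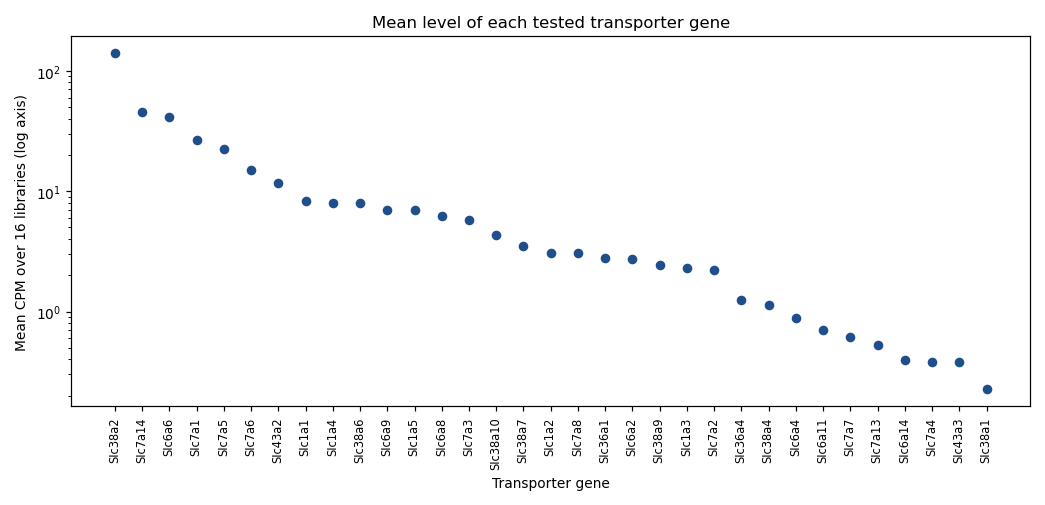
Mean CPM of the 33 tested transporter genes (average of 5 tags or more) over the 16 libraries on a log axis, 1 point per gene, ordered from high to low. Slc38a2 stands alone at 140.6 CPM.

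The first question was which transporters distinguish HFSCs from progenitors. In untreated cells 13 of the 33 tested genes (39.4%) were called between CD34+ and CD34- cells, where 32.1% of all tested genes were; 8 were higher in CD34+ cells (16.1% of all genes were) and 5 lower (16.1% of all genes were). With N1-AcSpd 12 of the 33 (36.4%) were called, against 33.3% of all genes, with 8 higher (16.5% of all genes) and 4 lower (16.8% of all genes). The share called was thus near that of the transcriptome as a whole. The median log2 fold change of the 33 was 0.20 in untreated cells (all genes 0.02) and 0.14 with N1-AcSpd (all genes -0.01), and the median size of the change was 0.37 and 0.30, against 0.25 and 0.26 over all genes. Scaling by library totals in place of TMM moved the median of all genes to 0.14 and 0.11, and the members called then split into 10 higher and 4 lower in untreated cells and 11 higher and 3 lower with N1-AcSpd. The 2 comparisons use different libraries of the same 4 mice.

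Bulk libraries cannot tell fewer cells of a type from less RNA per cell. The CD34 transcript itself was at 2.87 to 3.65 CPM in the 8 CD34- libraries and 43.4 to 64.0 CPM in the 8 CD34+ libraries, with no overlap. Markers of differentiating keratinocytes moved with the same sort: all 14 listed genes were lower in CD34+ cells in both comparisons, their summed level being 1424 to 1938 CPM in untreated CD34- and 373 to 419 CPM in untreated CD34+ libraries, and 1745 to 2353 CPM against 396 to 525 CPM with N1-AcSpd. A fibroblast list of 8 genes, led by Vim, summed to 2.80 to 11.1 CPM in untreated CD34- and 0.668 to 2.63 CPM in untreated CD34+ libraries; with N1-AcSpd the sums were 3.03 to 6.19 and 0.528 to 1.65 CPM. The part of these genes in the differences between the sorted fractions was not tested. Basal keratinocyte markers (7 of 7 present) summed to 6417 to 7389 CPM over all groups, mostly from Krt14, and 5 of the 7 were called between the fractions in both conditions (3 higher and 2 lower in CD34+). Of these, Krt15 rose from 38.6 to 393 CPM in untreated cells. A list of HFSC markers (8 of 8 present) summed to 60.4 to 80.8 CPM in CD34- and 174 to 231 CPM in CD34+ libraries. Of the 8, 6 were called higher in CD34+ cells in both conditions, against 16.1% and 16.5% of all genes. Cd34, the gene of the sort, is in this sum, so part of the rise was set by the sort. Tcf3 and Tcf4 were taken by symbol and are not the genes Tcf7l1 and Tcf7l2, but both are in that sum and among the 8.

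**Figure D2:**
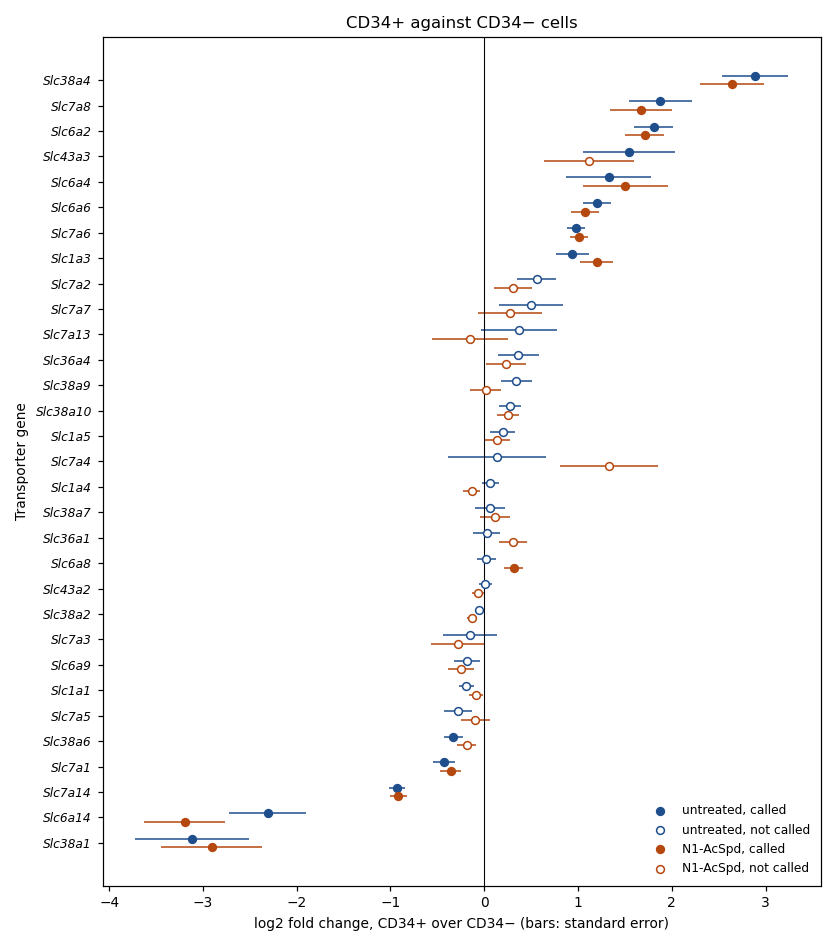
Log2 fold change of CD34+ over CD34- cells for 31 of the 33 tested transporter genes, with SE bars, in untreated (blue) and N1-AcSpd (orange) cells; filled points were called. Slc1a2 and Slc6a11, absent from most libraries, are left out because their errors exceed the axis. The genes run from Slc38a4 at 2.89 in untreated cells to Slc38a1 at -3.11.

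Among the glutamate carriers, Slc1a3 rose in CD34+ cells. Untreated CD34- libraries had 1.59, 1.60, 1.34 and 0.992 CPM (mice 1 to 4) and untreated CD34+ libraries 2.27, 2.63, 2.6 and 3.08 CPM. The N1-AcSpd CD34- libraries had 1.86, 1.81, 1.41 and 1.15 CPM and the CD34+ libraries 3.16, 4.04, 3.62 and 3.52 CPM. CD34+ libraries lay above CD34- libraries in all 4 mice under both conditions, without overlap. The contrast on the log2 scale was 0.94 (SE 0.18, adjusted p = 0.00114) in untreated and 1.20 (SE 0.18, adjusted p = 0.000129) in N1-AcSpd cells.

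The other glutamate carrier with steady counts, Slc1a1, was at 9.18 ± 0.465 CPM (SD, n = 4) in untreated CD34- and 8.04 ± 0.318 CPM in untreated CD34+ cells. Its log2 fold change of -0.19 was not called (adjusted p = 0.0804) and passed with the mouse as a block (adjusted p = 0.0469). Its mean count lay within 4.02% of that of Gm5822, a pseudogene inside its body on the other strand, and without knowledge of strand the tags of both cannot be told apart. The neutral exchangers Slc1a4 and Slc1a5 were at 8.02 and 6.92 CPM over all libraries and were not called in either comparison, with log2 fold changes from -0.13 to 0.20. Slc1a2, the main glutamate carrier of astrocytes, was all or none: 11 libraries had no tag, and 5 libraries in all 4 groups and from mice 1, 2 and 4 had 154 to 252 tags, or 9.04 to 10.6 CPM. Empty cells were read as 0, so these zeros may not be true absence, and the cause was not tested.

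The sodium-coupled neutral carriers gave the widest spread. Slc38a4 rose most of all 33 genes, and Slc38a1 fell most in untreated cells. For Slc38a4 the untreated CD34- libraries had 0.344, 0.128, 0.216 and 0.135 CPM (2 to 8 tags each) and the untreated CD34+ libraries 1.65, 2.08, 1.03 and 1.59 CPM. With N1-AcSpd they had 0.454, 0.284, 0.456 and 0.287 CPM against 1.67, 1.76, 3.25 and 2.70 CPM. Every CD34+ library of this gene was above every CD34- library, at 2.89 on the log2 scale (7.41-fold, SE 0.36, adjusted p = 3.54e-05) in untreated and 2.64 (6.25-fold, SE 0.34, adjusted p = 3.95e-05) in N1-AcSpd cells.

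Slc38a1 was rare throughout. It gave 6, 3, 8 and 7 tags in the untreated CD34- libraries of mice 1 to 4 and 1, 0, 0 and 1 in the untreated CD34+ libraries. With N1-AcSpd the counts were 8, 13, 17 and 17 against 1, 2, 1 and 1. The fitted log2 fold change was -3.11 (SE 0.61, adjusted p = 0.00142) in untreated and -2.91 (SE 0.53, adjusted p = 0.000774) in N1-AcSpd cells. Since only 2 tags stood against 24 in untreated cells, the ratio of the summed counts, 0.0952, has an exact 95% interval from 0.0109 to 0.383 that covers counting error only.

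Slc38a1, Slc38a2 and Slc38a4 lie in this order on chromosome 15 of GRCm38, all on the minus strand, at chr15:96571418-96642913, chr15:96687392-96699730 and chr15:96994820-97055956. Gaps of 44.5 and 295.1 kb separate them, and whether other genes lie between was not examined. Slc38a2, in the middle, was nearly level between the fractions while its neighbours moved in opposite directions. It was at 140, 131, 147 and 142 CPM in untreated CD34- and 127, 137, 131 and 145 CPM in untreated CD34+ libraries, and the difference was -0.05 on the log2 scale (SE 0.05, adjusted p = 0.511). In N1-AcSpd cells it was at 150, 141, 161 and 149 CPM against 134, 133, 140 and 142 CPM. That difference of -0.13 (SE 0.05) was not called (adjusted p = 0.0586) and passed with the mouse as a block (adjusted p = 0.0361) and with DESeq2 (adjusted p = 0.0182). Under library totals the untreated value turned to 0.07.

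Slc38a6, a less studied member of the family, was called lower in untreated CD34+ cells by a small margin. It was at 9.89, 7.41, 9.26 and 9.56 CPM in untreated CD34- and 7.39, 6.36, 6.99 and 8.01 CPM in untreated CD34+ libraries, lower in 4 of 4 mice although the groups overlap. The log2 fold change was -0.33 (SE 0.10, adjusted p = 0.0233), and the call was lost without mouse 1, 3 or 4 (adjusted p = 0.101, 0.104 and 0.067), under library totals (adjusted p = 0.131) and when only the compared groups were fitted (adjusted p = 0.0558). With N1-AcSpd it was not called (-0.19, adjusted p = 0.186). The lysosomal carriers Slc38a7 and Slc38a9 (the latter also an arginine sensor of mTORC1) and Slc38a10 were not called, at 2.44 to 4.29 CPM and with log2 fold changes from 0.01 to 0.34.

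**Figure D3:**
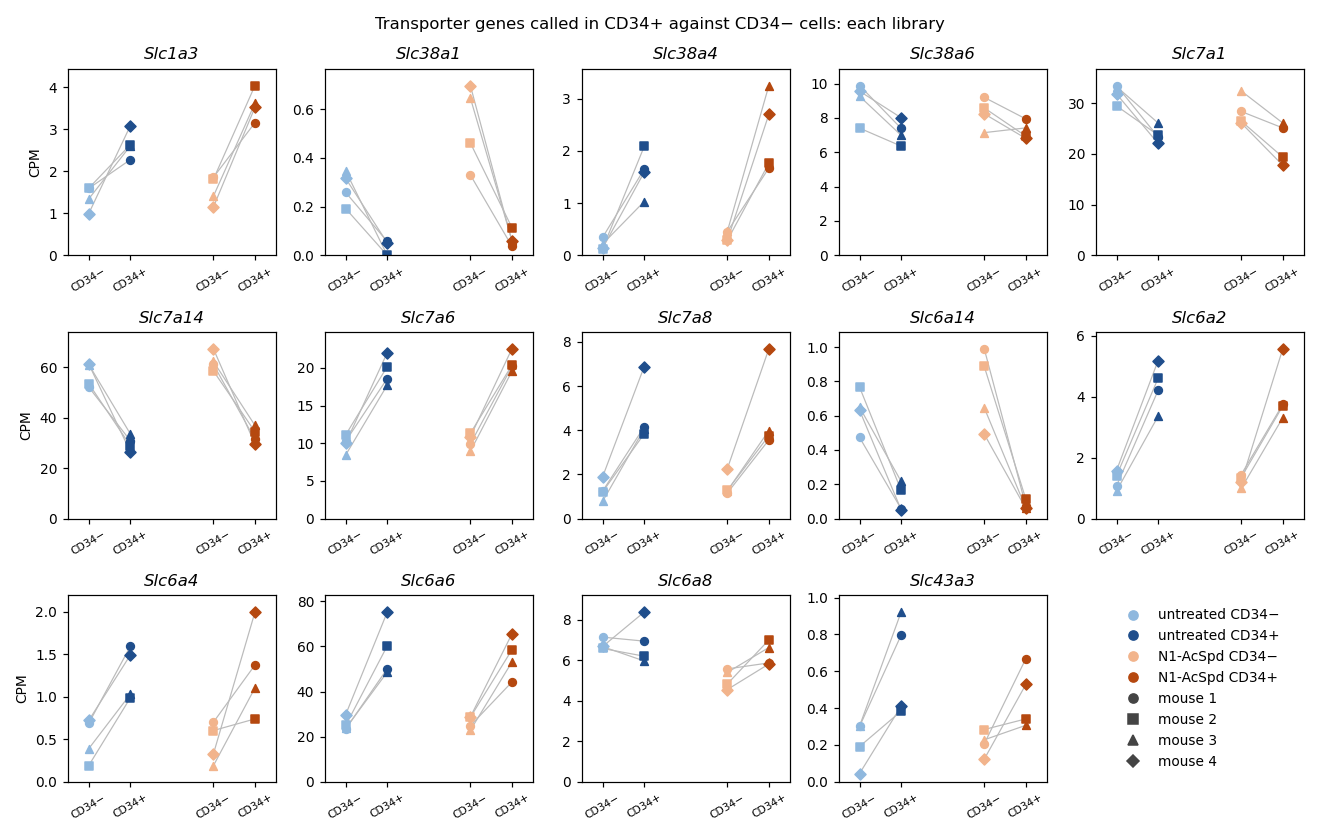
CPM of the 14 transporter genes called between CD34+ and CD34- cells in at least 1 condition, every library shown (linear axes from 0). Colours are the 4 groups, symbols the 4 mice, and grey lines join the 2 fractions of a mouse; for Slc38a4 and Slc7a14 the fractions do not overlap in either condition.

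Of the cationic amino acid carriers, Slc7a14 and Slc7a1 were lower in CD34+ cells. Slc7a14 belongs to this group by sequence and is known mainly from the retina and nervous system, yet here it was the second highest of the 47 genes. Untreated CD34- libraries had 52.2, 53.6, 61.2 and 61.4 CPM and untreated CD34+ libraries 30.9, 28.9, 33.6 and 26.6 CPM. With N1-AcSpd the values were 61.2, 58.6, 62.4 and 67.4 CPM against 31.4, 34.5, 37.0 and 29.5 CPM. The fractions were apart in every mouse under both conditions, at -0.93 (0.526-fold, SE 0.09, adjusted p = 3.09e-06) and -0.91 (0.530-fold, SE 0.09, adjusted p = 3.10e-06). The gene Gm15496 lies inside the body of Slc7a14, sharing no exon with it, and its part in these counts was not tested.

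Slc7a1, the widespread arginine and lysine carrier, stood at 33.4, 29.4, 33.2 and 31.8 CPM in untreated CD34- libraries and at 23.3, 23.7, 26.1 and 22.0 CPM in untreated CD34+ libraries. With N1-AcSpd the values were 28.3, 26.4, 32.4 and 26.1 CPM against 25.1, 19.3, 26.1 and 17.7 CPM, and the CD34+ library was the lower in every mouse. Log2 fold changes were -0.43 (SE 0.11, adjusted p = 0.0104) in untreated cells and -0.36 (SE 0.11, adjusted p = 0.0252) in N1-AcSpd cells. The untreated call was lost without mouse 1 (adjusted p = 0.0733). The N1-AcSpd call was lost without mouse 1, 2 or 4 (adjusted p = 0.0532, 0.111 and 0.0876), when only the compared groups were fitted (adjusted p = 0.108) and under library totals (adjusted p = 0.105). Slc7a2, at 2.23 CPM over all libraries, was not called (0.56, adjusted p = 0.0545, and 0.30, adjusted p = 0.296), nor was Slc7a3, at 5.79 CPM. Slc7a4 was at 0.381 CPM, with a mean count within 1.63% of that of P2rx6, whose exons overlap it on the other strand, and its values are uncertain.

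Among the light chains, Slc7a6 and Slc7a8 were higher in CD34+ cells. Slc7a6, which exchanges cationic for neutral amino acids, was at 10.3, 11.1, 8.44 and 10 CPM in untreated CD34- and 18.6, 20.2, 17.7 and 22.0 CPM in untreated CD34+ libraries. N1-AcSpd libraries gave 9.90, 11.3, 8.93 and 10.9 CPM against 20.2, 20.4, 19.6 and 22.5 CPM. The fractions did not overlap, and the fold was 1.97 (log2 0.98, SE 0.10, adjusted p = 4.26e-06) and 2.01 (log2 1.01, SE 0.10, adjusted p = 2.99e-06).

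Slc7a8, a carrier of large neutral amino acids, was at 1.25, 1.21, 0.779 and 1.89 CPM in untreated CD34- and 4.15, 3.84, 4.06 and 6.88 CPM in untreated CD34+ libraries. With N1-AcSpd it was at 1.15, 1.28, 1.25 and 2.25 CPM against 3.56, 3.75, 3.99 and 7.69 CPM. The mouse 4 library was the highest of its group in all 4 groups, and the fractions still did not overlap. On the log2 scale the contrast was 1.88 (3.68-fold, SE 0.34, adjusted p = 0.000749) and 1.67 (3.19-fold, SE 0.33, adjusted p = 0.00130), and 1.90 and 1.61 without mouse 4.

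The other large neutral light chain, Slc7a5, did not follow Slc7a8. It was at 28.2, 22.4, 27.1 and 24.5 CPM in untreated CD34- and 20.9, 19.8, 23.5 and 19.9 CPM in untreated CD34+ libraries, lower in 4 of 4 mice. Its log2 fold change of -0.28 (SE 0.15) was not called (adjusted p = 0.190) and passed with the mouse as a block (adjusted p = 0.0301) and when only the untreated groups were fitted (adjusted p = 0.0457). In N1-AcSpd cells the value was -0.09 (adjusted p = 0.718), and it turned to 0.02 under library totals. Slc7a7 and Slc7a13, at 0.618 and 0.527 CPM, were not called. The exons of Slc7a7 overlap those of Oxa1l on the other strand, whose mean count of 297 per library was far above the 12.9 of Slc7a7.

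Slc3a2, the heavy chain that Slc7a5, Slc7a6, Slc7a7 and Slc7a8 share, was abundant and higher in CD34+ cells. Untreated CD34- libraries had 214, 202, 218 and 197 CPM and untreated CD34+ libraries 284, 265, 260 and 298 CPM. N1-AcSpd libraries had 220, 190, 213 and 203 CPM against 289, 243, 239 and 314 CPM. The log2 fold changes were 0.41 (SE 0.08, adjusted p = 0.00171) and 0.39 (SE 0.08, adjusted p = 0.00201). The alternative heavy chain Slc3a1 stayed at 0.269 to 0.340 CPM in the 4 group means and was not called.

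Within the SLC6A family, Slc6a6, Slc6a2 and Slc6a4 rose and Slc6a14 fell in CD34+ cells. The taurine carrier Slc6a6 was at 23.4, 25.0, 23.7 and 29.8 CPM in untreated CD34- and 50.1, 60.2, 48.6 and 75.2 CPM in untreated CD34+ libraries. N1-AcSpd libraries had 24.9, 28.6, 22.8 and 28.7 CPM against 44.2, 58.5, 53.1 and 65.5 CPM. Every CD34+ library was above every CD34- library. The fold was 2.30 (log2 1.20, SE 0.15, adjusted p = 4.07e-05) in untreated and 2.11 (log2 1.07, SE 0.15, adjusted p = 8.65e-05) in N1-AcSpd cells.

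Slc6a2, the noradrenaline carrier best known from sympathetic neurons, was at 1.07, 1.40, 0.909 and 1.58 CPM in untreated CD34- and 4.21, 4.61, 3.36 and 5.19 CPM in untreated CD34+ libraries. With N1-AcSpd it was at 1.44, 1.35, 0.988 and 1.19 CPM against 3.75, 3.70, 3.31 and 5.58 CPM, again with no overlap. Log2 fold changes were 1.81 (3.50-fold, SE 0.21, adjusted p = 2.28e-05) and 1.71 (3.28-fold, SE 0.21, adjusted p = 2.83e-05).

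The serotonin carrier Slc6a4 gave 16, 3, 9 and 16 tags in untreated CD34- and 28, 18, 19 and 29 tags in untreated CD34+ libraries, and with N1-AcSpd 17, 17, 5 and 8 tags against 37, 13, 18 and 34. On the CPM scale the CD34+ library was higher in every mouse and the groups did not overlap. On the log2 scale CD34+ cells were higher by 1.33 (SE 0.45, adjusted p = 0.0373) and 1.5 (SE 0.45, adjusted p = 0.0193). The untreated call was lost without mouse 1, 2, 3 or 4 (adjusted p = 0.104, 0.0878, 0.0960 and 0.0805) and with no filter on low counts (adjusted p = 0.0633), and the N1-AcSpd call without mouse 3 or 4 (adjusted p = 0.0886 and 0.167).

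Slc6a14, a sodium- and chloride-coupled carrier of neutral and cationic amino acids, was also rare. It gave 11, 12, 15 and 14 tags in untreated CD34- and 1, 3, 4 and 1 in untreated CD34+ libraries. With N1-AcSpd the counts were 24, 25, 17 and 12 against 2, 2, 1 and 1. Log2 fold changes were -2.31 (SE 0.41, adjusted p = 0.000705) and -3.19 (SE 0.43, adjusted p = 6.14e-05).

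The creatine carrier Slc6a8 was level between the untreated fractions (log2 0.02, SE 0.10, adjusted p = 0.918), and this value turned to -0.09 without mouse 4. In N1-AcSpd cells it was higher in CD34+ libraries, at 5.87, 7, 6.62 and 5.81 CPM, than in CD34- libraries, at 5.57, 4.82, 5.40 and 4.55 CPM. The log2 fold change of 0.31 (SE 0.10, adjusted p = 0.0308) was lost with the mouse as a block (adjusted p = 0.0551), with DESeq2 (adjusted p = 0.0531) and without mouse 2 or 3 (adjusted p = 0.205 and 0.0947). The glycine carrier Slc6a9 was not called, at 6.96 CPM over all libraries. Exons of 3 genes overlap Slc6a9 on the other strand, among them Ccdc24, whose mean count of 112 per library compares with 149 for Slc6a9. Slc6a11, a carrier of GABA, had no tag in 9 libraries and 20 to 40 in the other 7, and its mean count was identical to that of Gm8132, a gene inside its body on the other strand.

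In SLC43A, the nucleobase carrier Slc43a3 gave 7, 3, 7 and 1 tags in untreated CD34- and 14, 7, 17 and 8 tags in untreated CD34+ libraries. Its log2 fold change of 1.54 (SE 0.49, adjusted p = 0.0267) was lost without mouse 1, 2 or 3 (adjusted p = 0.0881, 0.0726 and 0.0991), with no filter on low counts (adjusted p = 0.0548) and when only the untreated groups were fitted (adjusted p = 0.0818). With N1-AcSpd it was not called (1.12, adjusted p = 0.0943). The amino acid uniporter Slc43a2 was at 11.8 CPM and level, with log2 fold changes of 0.01 and -0.07. The SLC36A carriers Slc36a1 and Slc36a4, at 2.77 and 1.25 CPM, were not called, with log2 fold changes from 0.03 to 0.36.

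The second question was what N1-AcSpd did to these genes. edgeR called none of the 33 in CD34- cells, in CD34+ cells or in the mean of both fractions, where it called 0.614%, 0.325% and 4.86% of all tested genes. With the mouse as a block the members called were again 0, 0 and 0, against 1.83%, 0.798% and 8.14% of all genes. DESeq2 called 1, 0 and 1 of the 15, 12 and 23 members to which it gave an adjusted p, against 5.32%, 4.89% and 11.8% of all genes. Before adjustment edgeR had a p under 0.05 for 1 member in CD34- cells, 2 in CD34+ cells and 5 in the mean of both, with 13.6%, 13.2% and 20.7% of all genes. The median size of the change over the 33 members was 0.13 in CD34- and 0.14 in CD34+ cells, and 0.13 over all genes in each.

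Slc6a8 had the smallest p in CD34- cells and in the mean of both fractions. Untreated CD34- libraries had 7.14, 6.58, 6.67 and 6.67 CPM and N1-AcSpd CD34- libraries 5.57, 4.82, 5.40 and 4.55 CPM, so that every treated library was below every untreated one. The log2 fold change was -0.41 (SE 0.10, 95% interval by a normal approximation -0.61 to -0.21), at an adjusted p of 0.0945 by edgeR and 0.0252 by DESeq2. In CD34+ cells the values were 6.94, 6.20, 5.96 and 8.37 CPM untreated and 5.87, 7, 6.62 and 5.81 CPM treated, which overlap. Over both fractions the log2 fold change was -0.27 (SE 0.07), at an adjusted p of 0.0538 by edgeR, 0.0746 with the mouse as a block and 0.0342 by DESeq2.

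The next smallest p-values in CD34- cells belonged to the neutral carriers Slc38a4 (0.80, SE 0.36, adjusted p = 0.367) and Slc38a2 (0.10, SE 0.05, adjusted p = 0.385), both higher with N1-AcSpd in 4 of 4 mice. In CD34+ cells the 3 smallest belonged to Slc1a4 (-0.25, SE 0.09, adjusted p = 0.268), Slc1a3 (0.43, SE 0.17, adjusted p = 0.308) and Slc38a4 (0.56, SE 0.31, adjusted p = 0.477). Over both fractions Slc38a4 (0.68, SE 0.24, adjusted p = 0.115) and Slc1a3 (0.30, SE 0.12, adjusted p = 0.175) followed Slc6a8. The exchanger Slc1a4 was at 8.64 ± 0.347 CPM (SD, n = 4) in untreated and 7.24 ± 0.705 CPM in treated CD34+ cells. Of 14 markers of differentiating keratinocytes, 3 were called higher with N1-AcSpd in the mean of both fractions (Ivl 0.60, Tgm1 0.58 and Sbsn 0.25). None of the 14 was called in CD34- or in CD34+ cells alone. Of the 8 genes on the HFSC list, Postn (-0.53) and Nfatc1 (-0.20) were called lower in the mean of both and Nfatc1 (-0.35) in CD34- cells. Krt15 (-0.37), on the basal list but far higher in CD34+ than in CD34- cells, was called lower in the mean of both. Over all genes 4.86% were called in the mean of both and 0.614% in CD34- cells. The part of these genes in the values above was not tested.

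**Figure D4:**
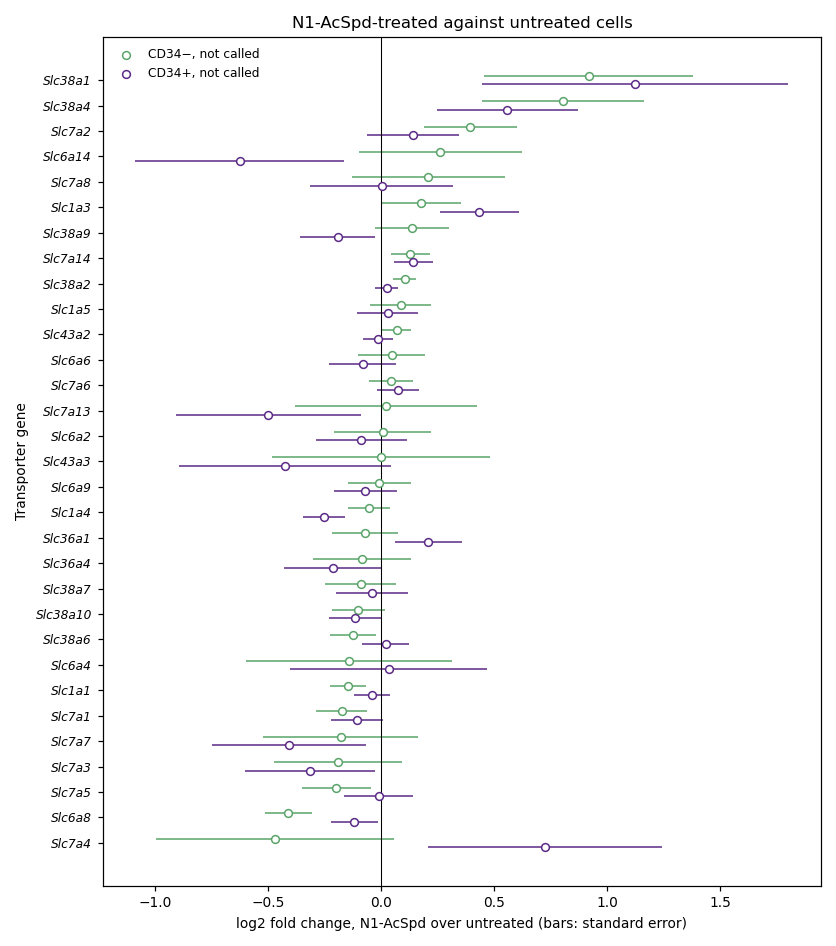
Log2 fold change of N1-AcSpd over untreated cells for 31 of the 33 tested transporter genes, with SE bars, in CD34- (green) and CD34+ (purple) cells; Slc1a2 and Slc6a11 are left out as above and no gene was called. Slc6a8 in CD34- cells, at -0.41, lies farthest from 0 in units of its error.

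Whether the difference between HFSCs and progenitors changed with N1-AcSpd was tested as an interaction. edgeR called 0% of all genes and 0 of the 33, none of which passed 0.05 even before adjustment; DESeq2 called 0.405% of all genes and 0 of the 32 members it could adjust. The members with the smallest p were Slc6a8 (0.29, SE 0.15), Slc7a4 (1.20, SE 0.74) and Slc1a4 (-0.20, SE 0.13), each at an adjusted p of 1.00. Calls such as those of Slc43a3, Slc38a6 and Slc6a8, present in 1 condition only, are therefore not shown to differ between conditions.

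Levels of a few members differed between the libraries of the 4 mice. The donor and the preparation of its cells cannot be told apart in this design. In the fit with the mouse as a block, the term for the 4 mice was called for 2 of the 33 genes, Slc7a8 and Slc6a6, against 0.882% of all genes. Slc7a8 averaged 2.53, 2.52, 2.52 and 4.68 CPM over the 4 libraries of mice 1 to 4 (adjusted p = 0.0101), and Slc6a6 averaged 35.6, 43.1, 37.0 and 49.8 CPM (adjusted p = 0.0418). Mouse 4 was the highest for both. The number of members called fell to 0 without mouse 1, 2 or 4, to 1 without mouse 3 and to 1 under library totals. The next members, not called, were Slc7a3 at 7.09, 4.31, 6.95 and 4.81 CPM (adjusted p = 0.0801) and Slc7a5 at 24.4, 19.0, 25.5 and 20.9 CPM (adjusted p = 0.0887), both lower in mice 2 and 4. The mouse codes in the labels begin with X for mice 1 and 3 and with Y for mice 2 and 4. What these letters stand for is not given, and their part in these differences was not tested.

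**Figure D5:**
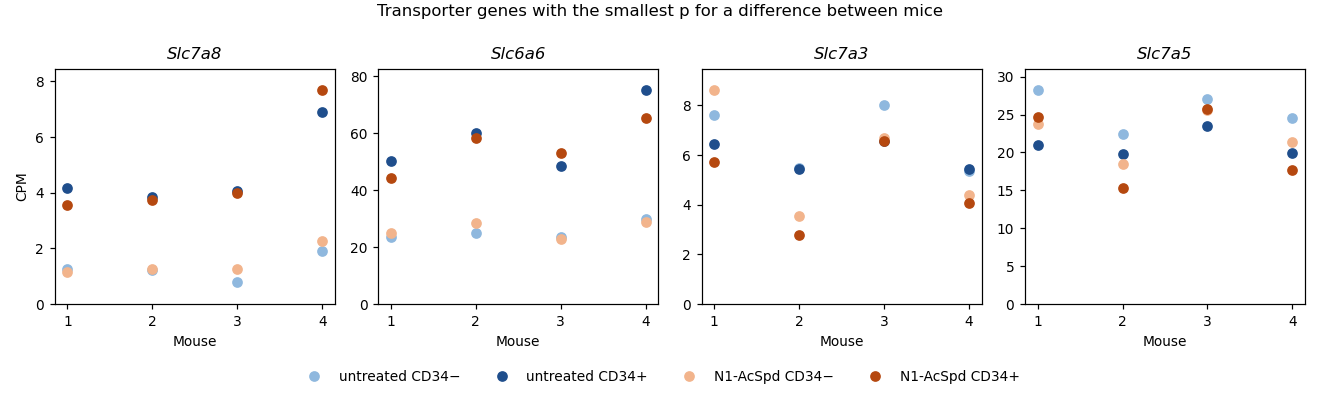
CPM of the 4 transporter genes with the smallest p for a difference between mice, by mouse, with 1 point for each of the 4 groups (linear axes from 0). Mouse 4 is highest in all 4 groups for Slc7a8, and mice 2 and 4 are lower than mice 1 and 3 in each group for Slc7a3.

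Genes around the transporters were read from 4 further lists. Of 19 tested carriers of amino acids and peptides outside the symbol rule, 5 (26.3%) were called in untreated cells (2 higher, 3 lower in CD34+) and 4 (21.1%) with N1-AcSpd (1 higher, 3 lower), against 32.1% and 33.3% of all genes. Slc6a20b, of the same family as Slc6a14, had group means from 22.2 to 24.7 CPM and was not called, nor was Slc6a20a at 1.16 to 1.70 CPM. Slc25a29, a mitochondrial carrier of basic amino acids, rose from 2.82 ± 0.320 to 6.81 ± 0.509 CPM in untreated cells (1.27, SE 0.16) and by 1.5 (SE 0.16) with N1-AcSpd. The lysosomal cystine carrier Ctns was the other gene called higher, in untreated cells (0.39, adjusted p = 0.0388), and stood at -0.01 with N1-AcSpd. Slc15a3, a histidine and peptide carrier of lysosomes, fell from 13.2 ± 0.801 to 5.61 ± 0.266 CPM in untreated cells (-1.23, SE 0.10) and was lower with N1-AcSpd too (-1.54, SE 0.10). The aromatic amino acid carrier Slc16a10 was lower in both conditions (-0.75, SE 0.27, and -0.89, SE 0.27).

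Of 31 tested genes on a list for amino acid sensing by the growth kinase mTORC1, 6 (19.4%) were called in untreated cells (5 higher, 1 lower) and 8 (25.8%) with N1-AcSpd (5 higher, 3 lower), against 32.1% and 33.3% of all genes. Sestrin genes, whose proteins can restrain mTORC1, gave the largest rises. Sesn1 went from 2.72 ± 0.303 to 7.99 ± 1.45 CPM in untreated cells (1.55, SE 0.21) and rose by 1.38 (SE 0.21) with N1-AcSpd. Sesn3 rose by 0.66 (SE 0.20) and 0.78 (SE 0.19). Lars2, which the list holds although it encodes the mitochondrial leucyl-tRNA synthetase, was lower in both (-0.49 and -0.69), and Sec13 was lower with N1-AcSpd (-0.12). Of 21 aminoacyl-tRNA synthetases, which load amino acids onto tRNA and are cytosolic here except for the mitochondrial Fars2, 7 (33.3%) were called in untreated cells, all 7 lower in CD34+. With N1-AcSpd 13 (61.9%) were called, 12 lower and 1 (Vars, 0.21) higher; over all genes 16.1% and 16.8% were called lower. Qars, for glutamine, fell from 113 ± 7.74 to 67.4 ± 2.81 CPM in untreated cells (-0.74, SE 0.07) and was lower with N1-AcSpd (-0.79, SE 0.07), followed in size by Gars, for glycine, at -0.36 and -0.43.

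Of 19 enzymes of glutamine, glutamate, arginine and proline metabolism, 9 (47.4%) were called in each condition, 4 higher and 5 lower, against 32.1% and 33.3% of all genes. Aldh4a1 and Prodh, which break down proline, rose by 0.66 and 0.47 in untreated CD34+ cells and by 0.54 and 0.42 with N1-AcSpd. Ass1, an enzyme of arginine synthesis, fell from 9.67 ± 1.34 to 4.72 ± 0.397 CPM in untreated cells (-1.03, SE 0.10). It was lower with N1-AcSpd too (-1.0, SE 0.10). Arg1, which splits arginine into ornithine and urea, was lower as well, at 0.406 against 0.0271 CPM untreated and 0.489 against 0.0999 CPM with N1-AcSpd. This gene was rare, and its CD34+ values rest on few tags. Genes of these lists that N1-AcSpd raised in the mean of both fractions included Aars and Farsa, both by 0.12, and the ornithine aminotransferase Oat by 0.11 (SE 0.02, adjusted p = 0.0144). In that contrast edgeR called 2 of the 21 synthetases and 2 of the 19 enzymes, against 4.86% of all genes. It called none of the transporters or their heavy chains, and DESeq2 called Slc6a8 lower (adjusted p = 0.0342). With so few calls over all genes, the absence of an edgeR call does not set the transporters apart.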

How the data were processed

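RNA of sorted organoid cells was measured in 16 libraries, 4 groups of 4, with groups and mice taken from the labels. The authors split the reads by barcode (FLEXBAR), pseudo-aligned read 2 to mm10 (Kallisto), linked tags to genes (BEDTools) and took the number of distinct UMIs per gene in R; the submitters' processing notes name FastQC 0.11.7 and kallisto 0.45.0. The deposited values are these counts, not normalized. Whether strand was used, and the annotation release, are not given in the sources used here. The 156050 empty cells were read as 0, and 94 identifiers without a symbol held 0.125% of counts. Positions and symbols came from GENCODE on GRCm38 (mm10), promoters from RefSeq on GRCm38.p6.

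The 19049 genes averaging 5 counts or more went into edgeR 4.0.16 (R 4.3.3) with TMM scaling. A single model held the 16 libraries and a mean for each group. The SE was derived from the log2 fold change and the F statistic (size over root of F). Intervals are 95%, and that of the Slc6a8 fold change uses a normal approximation, which can be narrower than the F test implies. Alternatives were DESeq2 1.42.0, other scalings and count filters, the compared groups alone, each mouse left out, and the mouse as a block. The numbers pair the libraries because the labels give 1 mouse per number; same-numbered libraries deviated together weakly (mean r = 0.02, from -0.09 to 0.12, over 24 pairs). The transporter families, the other lists and the test of differences between mice were chosen with earlier results of these data known. Every tested transporter was accounted for. Values per library were given for called genes with a log2 change of at least 0.5, a rule extended after the values were seen to Slc7a1, Slc38a6, Slc7a5, Slc38a2 and Slc6a8; the 3 smallest p were named where none was called, and from other lists the 2 largest called changes in each direction. The values of 2 genes of the lists are not reported here.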

Additional observations from a re-analysis of the deposited data

Results flagged for a closer look

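In groups of 4 libraries, Dixon's test at the 95% level marked 3 of 72 groups over 18 named genes, and chance marks about 1 group in 20. All 3 were Slc7a8 in mouse 4, which stood above its group at 6.88 CPM in untreated CD34+ (next highest 4.15), 2.25 CPM in N1-AcSpd CD34- (next highest 1.28) and 7.69 CPM in N1-AcSpd CD34+ cells (next highest 3.99). The 4 libraries of mouse 4 share a donor, so these are not separate events, and the cause was not tested.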

How the results depend on the processing

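For N1-AcSpd, DESeq2 moved the members called from 0 to 1 in CD34- cells and from 0 to 1 in the mean of both fractions, both being Slc6a8, and it gave fewer members an adjusted p. The other counts for the 2 comparisons of the sorted fractions stayed within 1.5 times of those reported: 9 to 15 in untreated and 10 to 14 in N1-AcSpd cells over all alternatives, with 9 to 11 and 10 to 11 when a mouse was left out. With the replicate block they were 15 and 12, and the block changed no call of a member beyond Slc1a1, Slc7a5, Slc38a2 and Slc6a8. Values that reversed were uncalled ones: Slc38a2 (untreated, 0.0655) and Slc7a5 (N1-AcSpd, 0.0216) under library totals, and Slc6a8 (untreated), which ran from -0.0946 to 0.0758 when a mouse was left out (negative without mouse 4) and reached 0.140 under library totals. The term for mice, added after the data were seen, was called for 2 members, for 1 under library totals, and for 0 to 1 when a mouse was left out, with 0 without mouse 1, 2 or 4; its cause was not tested. Genes with few tags (Slc38a1, Slc6a14, Slc43a3, Slc6a4) rest on fewer than 40 tags in every library, and members below 5 tags could not be compared at this depth.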

Other observations

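Marker lists of other cell types gave the following levels. Melanocyte genes (6 of 7 present) summed to 28 to 36.1 CPM over the 16 libraries, mostly from Mitf and Pmel, while the pigment enzyme genes Tyr and Dct had group means of at most 0.102 and 0.482 CPM. Immune genes (6 of 7 present) summed to 2.58 to 5.91 CPM, with 1 to 3 of them at 0 per group. The endothelial list summed to 1686 to 2054 CPM from Pecam1, while Kdr and Tek, the other 2 of its genes present, had group means of at most 0.0899 and 0.149 CPM.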
